A study of Rattus norvegicus with 12 samples.

Results

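Small hepatocytes collected on Matrigel were compared with mature hepatocytes across all genes on 6 of the study's 12 single-colour arrays, 3 in each group. Colony-forming hepatic progenitors of adult rats are known as small hepatocytes. The cells of the Matrigel group (Mat) came from livers of F344 rats (a DPPIV+ strain) taken apart by collagenase perfusion, were grown without serum, underwent magnetic sorting for CD44, a surface protein, on day 9, and were then kept on Matrigel, a basement membrane extract. At passage 2 they were put on Matrigel-coated dishes for 3 h before RNA was taken. The medium held 10 mM nicotinamide, 10 ng/mL epidermal growth factor (EGF), L-proline, an ascorbate phosphate, dexamethasone and a mix of insulin, transferrin and selenium. Mature hepatocytes (MH) of the same strain were isolated from fresh livers, and the labels name no culture or substrate for them. Laminin-111 (LN111) and laminin-511 (LN511) groups of the same passage, again with 3 arrays each, served for a comparison of substrates. Sex and age are not in the labels, nor is it stated whether the replicates of a group are different animals or dishes. The p-values therefore reflect array-to-array spread that may be technical only. Culture, sorting, passage and time since isolation all differ between Mat and MH and cannot be told apart.

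Hepatocytes make most plasma proteins, clear ammonia as urea, oxidise fatty acids, release glucose and transform foreign compounds with cytochromes P450, under the control of liver-enriched transcription factors such as HNF1, HNF4 and C/EBP proteins. Bile duct cells and hepatic progenitors carry keratins 7 and 19, SOX9 and EPCAM. Placed in culture, hepatocytes are known to attach through integrins, to build actin fibres and to answer growth factors through immediate-early genes.

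Values are given as the scaled signal, in log2 units, with 0 at the 75th percentile of each array. A difference is Mat minus MH of this scaled signal, with the standard error (SE) of the limma fit, and a called gene has a Benjamini-Hochberg adjusted p under 0.05. Where no array of 1 group had a gene well above background, its fold is a lower bound, written "at least". That bound sets the brighter group's mean against the mean of the dim group, with each dim array at the higher of its lowest detected signal and the gene's own. Levels of different genes are not set against each other.

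Between 52.18% and 62.75% of spots on these 6 arrays were well above background and 0 were saturated. The 75th percentile of the signal was 1920 to 3090 on the Mat arrays and 757 to 961 on the MH arrays. Mat replicates 1 and 2 shared slide 1 with all 3 MH arrays, and Mat replicate 3 lay on slide 2. The first principal component held 91% of the variance, with Mat arrays at -178.5 to -145.9 and MH arrays at 155.4 to 161.2. Mat replicate 2 stood apart from the other Mat arrays: 11% and 12.4% of genes differed by more than 2-fold between it and replicates 1 and 3, against 2.3% between replicates 1 and 3. Over probes spotted repeatedly, replicates 1 and 3, on different slides, differed by a standard deviation of 0.105, the smallest gap of any pair of replicates (0.155 to 0.293 for the others). It exceeds the 0.021 that the spots' own spread gives, which leaves out a second hybridisation, so whether both arrays hold 1 RNA was not tested. They were counted as separate samples, as labelled, and with both averaged to 1 sample 11708 genes were called.

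Of 18927 genes tested, 12730 were called (67.3%), 4964 higher (26.2%) and 7766 lower (41.0%) in Mat. A difference of at least 10-fold was found for 1005 higher and 1302 lower genes, and one of at least 100-fold for 161 and 243. All Mat arrays lay above all MH arrays for 5552 genes (29.3%) and below them for 8642 (45.7%). Well above background on all Mat arrays and on no MH array were 1961 genes, and 540 genes had the opposite pattern. The median difference over all genes was -0.27. It depended on the scaling, with -0.58 after normexp background correction, 0.17 with quantile scaling, 0.26 with the percentile taken over detected probes and 1.34 unscaled, and the share of calls that were higher was 39% as scaled here and 21.8%, 56%, 59.6% and 86.8% in those settings. Small differences are therefore read against the median of all genes, while differences of over 100-fold exceed these shifts.

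Decreases on Matrigel were ranked among called genes whose arrays did not overlap, with placeholder names such as LOC numbers left out. The 10 largest were of 3 cytochromes P450, a sulfotransferase, a serpin, an apolipoprotein and 4 urinary protein genes, most of them known as male-biased in rat liver. Cyp4a2, a fatty acid hydroxylase, was at 7.08, 7.56 and 6.84 on the 3 MH arrays and not well above background on any Mat array, which made it at least 21000-fold lower (adjusted p = 4.36e-09). Cyp2c13 and Cyp3a2, male-biased cytochromes P450 of the rat, were at least 16500-fold and at least 12500-fold lower, and the oestrogen sulfotransferase Sult1e1 at least 11400-fold lower (adjusted p = 3.09e-11). The serpin gene Serpina3c was at least 24700-fold lower and the apolipoprotein gene Apof at least 8600-fold lower. Every MH array carried a strong signal of these 6 genes, and the groups did not overlap.

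Major urinary proteins, pheromone carriers that the liver of male rats secretes, formed the next group. Mup4l3 was at -5.44, -4.65 and -5.65 on Mat replicates 1 to 3 and at 8.36, 8.1 and 8.54 on the MH arrays, a difference of -13.58 ± 1.03 (adjusted p = 1.5e-06). Mup4l4 differed by -13.06, Mup4 by -12.5, Rup2 by -12.47 and the related odorant-binding protein gene Obp3 by -11.9. Mup4l1 (-13.55) and Mup5 (-13.44) were well above background on 2 of 3 Mat arrays. These genes are near-identical copies whose probes may share signal, so their differences are not independent.

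Among decreases measured on all 6 arrays, Cyp2c11, the main male P450 of rat liver, stood at -3.16, -3.37 and -3.14 on Mat and at 7.37, 6.4 and 7.42 on MH (-10.29 ± 0.55, adjusted p = 1.45e-07). Pck1, the rate-limiting enzyme of gluconeogenesis, stood at -5.78, -4.96 and -5.66 against 4.81, 4 and 4.4 (-9.87 ± 0.47, adjusted p = 7.32e-08). The glutathione transferase Gstp3 (-10.39), the carbonic anhydrase Car3 (-9.73) and the complement lectin Mbl2 (-9.46) completed the 10 largest decreases of this kind, again without placeholder names. Of 31 tested genes of the sex-dependent and growth hormone list, 26 were lower and 3 higher, with a median of -7.37 (25, 2 and -6.17 without Mat replicate 2). All 13 male-biased members were lower (median -12.5), and so were 5 of 6 tested female-biased members. Pituitary growth hormone sets these sex differences in the living animal. Ghr, its receptor, stood at -0.83, -1.54 and -0.71 on Mat and at 4.72, 4.33 and 4.74 on MH, and Igf1, the main liver hormone under its control, differed by -4.99 ± 0.28 (adjusted p = 1.77e-07). Jak2, the kinase bound to that receptor, was higher (1.67 ± 0.3, adjusted p = 0.000626).

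Secreted plasma proteins were lower as a group, with 65 of 80 tested genes lower and 3 higher (median -4.2, against -0.27 over all genes). The most abundant carriers kept strong signals: albumin (Alb) was at 5.53, 5.29 and 5.87 on Mat and at 7.22, 7.18 and 7.49 on MH (-1.74 ± 0.19, adjusted p = 2.41e-05), and the thyroid hormone carrier Ttr differed by -1.81 ± 0.19. The calls of Alb and Ttr were lost under quantile scaling, where Ttr stood at 0.08, and in unscaled values. All 10 carriers, 11 of 12 apolipoproteins, 17 of 20 coagulation genes and 15 of 19 complement genes were lower. Without Mat replicate 2 these were 8, 9, 11 and 16. The 3 higher members were acute phase or inhibitor genes. Lcn2, an iron-siderophore binding protein, was at 1.25, 0.32 and 1.32 on Mat and not well above background on MH, at least 132-fold higher (adjusted p = 5.74e-08). A2m, the protease inhibitor alpha-2-macroglobulin, stood at 5.2, 2.66 and 5.31 against -3.38, -2.02 and -2.54 (7.04 ± 1.16, adjusted p = 0.000352), and Lbp, which binds lipopolysaccharide, differed by 2.09 ± 0.54 (adjusted p = 0.00597).

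The depth of the plasma protein decrease differed between the Mat arrays, since the list's median against the MH mean was -3.1, -5.78 and -2.99 on replicates 1, 2 and 3. Without replicate 2 the list had 51 lower and 3 higher genes and a median of -3.05. Coagulation factor F9 was at 0.33, -3.85 and 0.58 on Mat and at 4.38, 4.32 and 4.08 on MH, so all Mat arrays were lower but replicate 2 by far the most, and the call was lost without that replicate (-3.81, adjusted p = 0.0503).

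Cytochromes P450 were lower in 41 of 54 tested genes and higher in 1 (median -5.12). Cyp2d4 was at -3.32, -3.58 and -3.24 on Mat and at 3.26, 3.41 and 3.2 on MH, with almost no spread inside either group (-6.67 ± 0.19, adjusted p = 4.37e-09). It was named for a p among the list's smallest, a choice that favours little spread. The exception was Cyp1a1, the classical target of the aryl hydrocarbon receptor, at 2.39, -0.8 and 2.41 on Mat and not well above background on MH, at least 171-fold higher (adjusted p = 1.86e-05). Replicate 2 was the lowest Mat array for Cyp1a1, and the list's medians of -4.57, -6.55 and -4.47 on Mat replicates 1 to 3 show the same order. Without replicate 2 the median was -4.5, with 39 genes lower and 2 higher. Sterol and bile acid P450s were lower in 4 of 7, among them Cyp7a1, which sets the rate of bile acid synthesis, at least 62.3-fold lower (adjusted p = 0.00013) although its MH arrays stood at 1.35, -4.27 and -0.79.

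Every tested gene of the urea cycle and amino acid catabolism list was lower on Matrigel, 62 of 62, with a median of -4.67 and differences from -10.1 to -1.32. All 8 urea cycle genes were lower. Otc, which joins ornithine and carbamoyl phosphate, was at -1.59, -4.31 and -1.46 on Mat and at 3.88, 3.58 and 4.11 on MH (-6.31 ± 1.04, adjusted p = 0.000366). Cps1, the entry enzyme of the cycle, differed by -7.4 ± 1.25 (adjusted p = 0.000421) and was well above background on 2 of 3 Mat arrays. The list's median against the MH mean was -3.99, -5.23 and -4.01 on Mat replicates 1, 2 and 3, so replicate 2 was the lowest here too. The members named next have the list's smallest p, a choice that favours little spread, and were nearly equal on all Mat arrays. Gls2, the liver glutaminase, stood at -0.25, -0.36 and -0.33 against 5.32, 5.46 and 5.1 (-5.61 ± 0.16), and Gpt, an alanine aminotransferase, at -1.77, -1.74 and -1.78 against 3.24, 3.62 and 2.91 (-5.02 ± 0.18). Mmut (-3.79 ± 0.1) and Ivd (-3.76 ± 0.14), of propionate and leucine breakdown, were as uniform (adjusted p from 4.36e-09 to 1.4e-08 for these 4 genes). Without replicate 2, 60 of the 62 genes were called lower, with a median of -4.

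Liver lobules are zoned from the portal to the central vein. Of 18 tested periportal genes, 17 were lower (median -5.23), and of 17 pericentral genes 12 (median -3.43). Without Mat replicate 2 the pericentral median was -2.68 and that of both zones -3.83 rather than -4.8, with 29 of 35 lower either way. Slco1b2, a pericentral organic anion carrier, was at least 1300-fold lower and the dicarboxylate carrier Slc13a3 at least 1190-fold lower (adjusted p = 2.49e-08 and 1.94e-08). Cyp2e1, a pericentral P450, was at 0.35, -2.78 and 0.52 on Mat and at 6.15, 7.05 and 5.44 on MH (-6.85 ± 1.38, adjusted p = 0.00139). Of the 35 tested genes of either zone, 0 were higher on Matrigel.

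Of 46 tested transcription factors of hepatocytes, 33 were lower and 3 higher, with a median of -1.94. Nuclear receptors were lower in 20 of 23. The smallest p among them was that of Nr1h4, the bile acid receptor FXR, at -2.69, -2.86 and -2.61 on Mat and at 3.68, 3.18 and 2.7 on MH (-5.91 ± 0.25, adjusted p = 3.29e-08). The oxysterol receptor Nr1h3 differed by -4.15 ± 0.3 and the retinoid receptor Rxra by -2.99 ± 0.21. Cebpa, which drives many hepatocyte genes, stood at 0.62, 0.95 and 0.69 against 4.87, 4.24 and 4.24 (-3.7 ± 0.28, adjusted p = 1.65e-06). Hnf4a was at 2.11, 2.87 and 1.93 on Mat and at 4.03, 3.45 and 3.44 on MH (-1.34 ± 0.38, adjusted p = 0.00933), but this call was lost with the percentile over detected probes and under quantile scaling, and the difference stood at 0.27 unscaled. Replicate 2, lowest of the Mat arrays for the plasma protein list, was highest of them for Hnf4a. Among the members higher on Matrigel were the glucocorticoid-induced Cebpd (1.91 ± 0.41) and Gata6 (1.4 ± 0.31), whose call was lost after normexp background correction.

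Letters of known binding motifs were looked for in the 250 bases upstream of the gene start in RefSeq's rat promoters (build GRCr8), on both strands. The 2 motifs of hepatocyte factors did not overlap each other in the promoters shown. The HNF1 core motif was present in 12 of 814 promoters of genes lower by at least 10-fold (1.47%), in 1 of 637 of genes higher by at least 10-fold (0.157%), in 35 of 10888 tested (0.321%) and in 91 of all 27456 (0.331%). The HNF4 motif CAAAGTCCA was present in 15 (1.84%), 2 (0.314%), 42 (0.386%) and 91 (0.331%) of the same sets. These are shares of letter matches, not of bound sites, and were not tested. The promoters below, chosen after their values were seen, show such matches in genes lower on Matrigel, each sequence 5′ to 3′ on the gene's strand, with the match in capitals. In G6pc1 (chr10:86807409-86807658, plus strand), the glucose-6-phosphatase that releases glucose, the HNF1 core starts 234 bases before the gene start, and the gene stood at -1.74, -3.63 and -1.75 on Mat and at 6.23, 5.43 and 4.94 on MH (-7.91 ± 0.6). In Plg (chr1:50915407-50915656, minus strand), which encodes plasminogen, it starts 71 bases before, and the difference was -4.72 ± 1.33 (call lost under quantile scaling). In Cps1 (chr9:76063613-76063862, plus strand) the HNF4 motif starts 71 bases before the gene start. In Baat (chr5:68656138-68656387, minus strand), which joins bile acids to amino acids, it starts 90 bases before, and the gene stood at 0.86, -0.79 and 0.89 against 6.43, 6.33 and 6.47 (-6.09 ± 0.63, adjusted p = 1.42e-05).
G6pc1: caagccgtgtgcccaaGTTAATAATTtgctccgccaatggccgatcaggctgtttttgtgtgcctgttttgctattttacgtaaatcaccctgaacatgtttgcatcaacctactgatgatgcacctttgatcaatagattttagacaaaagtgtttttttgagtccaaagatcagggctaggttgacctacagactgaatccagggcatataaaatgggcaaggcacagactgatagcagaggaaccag
Plg: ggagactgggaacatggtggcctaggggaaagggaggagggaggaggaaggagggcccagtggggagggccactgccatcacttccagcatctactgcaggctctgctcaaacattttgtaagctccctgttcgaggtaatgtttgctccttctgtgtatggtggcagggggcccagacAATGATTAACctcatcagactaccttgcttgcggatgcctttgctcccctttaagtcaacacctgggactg
Cps1: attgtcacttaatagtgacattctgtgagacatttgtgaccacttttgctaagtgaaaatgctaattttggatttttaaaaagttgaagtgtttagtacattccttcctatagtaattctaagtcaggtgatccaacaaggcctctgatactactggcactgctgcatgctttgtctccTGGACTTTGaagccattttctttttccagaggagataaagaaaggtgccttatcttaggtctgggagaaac
Baat: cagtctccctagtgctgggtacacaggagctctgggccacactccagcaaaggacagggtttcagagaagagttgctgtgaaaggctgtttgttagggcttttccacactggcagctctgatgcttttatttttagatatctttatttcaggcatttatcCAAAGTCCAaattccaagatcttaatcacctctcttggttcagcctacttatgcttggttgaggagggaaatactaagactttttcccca

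RNA of transporters in the hepatocyte membrane was lower on the uptake side. Of 11 tested sinusoidal uptake carriers, 10 were lower (median -7.97, or -6.83 without Mat replicate 2). Slc10a1, the bile acid importer, was at -3.19, -5.59 and -2.87 on Mat and at 5.02, 5.15 and 5.12 on MH (-8.98 ± 0.91, adjusted p = 1.22e-05). Of 10 canalicular exporters, 7 were lower and 1 was higher. The bile salt pump Abcb11 was lower (-7.66 ± 1.62) with Mat replicate 2 at -6.33 and the others at -1.95 and -1.89. Its relative Abcb1b, a multidrug exporter, was higher, at 3, 3.59 and 2.92 against -1.28, -2.24 and -1.43 (4.82 ± 0.31, adjusted p = 4.51e-07). Among 7 sinusoidal exporters 4 were higher and 1 lower, with Abcc1 at -0.98, -0.8 and -1 against -4.49, -4.4 and -4.42 (3.51 ± 0.11, adjusted p = 6.38e-09). The cystine carrier Slc7a11 was at least 115-fold higher (another probe at 3.33), and the glucose carrier Slc2a1 of many tissues was higher by 2.45 ± 0.21.

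Hepatic progenitor and biliary markers were higher in 46 of 53 tested genes and lower in 2, with a median of 4.15, or 3.91 with genes undetected on MH at their bounds. Krt7 was at 2.74, 4.63 and 2.61 on Mat and not well above background on MH, at least 680-fold higher (adjusted p = 1.84e-06). Krt19 was at 2.56, 4.31 and 2.61, at least 606-fold higher (adjusted p = 3.18e-06). Mat replicate 2 was the highest array for both keratins. The tight junction gene Cldn4 was at 3.08, 2.23 and 3.21 and at least 486-fold higher, and Sox9 was at -0.04, 0.34 and 0.1 and at least 74.3-fold higher (adjusted p = 7.55e-08) by the brightest of its 4 probes, with another at 1.17. Epcam was detected in both groups, at 1.78, 1.24 and 1.89 against -2.4, -2.54 and -2.59 (4.15 ± 0.3, adjusted p = 1.06e-06). The developmental factor Sox4 (5.48 ± 0.17, with another probe at 1.81) and the TWEAK receptor Tnfrsf12a (5.44 ± 0.19) showed little spread between arrays. Both were named for a p among the list's smallest, a choice that favours little spread. The fetal growth factor Igf2 was at least 28.2-fold higher. Alpha-fetoprotein (Afp), the classical fetal liver product, was at 6.23, 3.78 and 6.4 on Mat and at 3.63, 2.33 and 3.43 on MH. These groups did not overlap, but the difference of 2.34 ± 1.1 was not called (adjusted p = 0.0836). Afp was called with the percentile over detected probes (2.87, adjusted p = 0.0416), under quantile scaling (3.59, 0.0148) and unscaled (3.95, 0.00299). Its difference ranged from 1.88 to 3.19 when single Mat or MH arrays were left out, and Mat replicate 2 was its lowest Mat array. Igf2bp3, an oncofetal RNA-binding protein, was lower (-4.62 ± 0.38, adjusted p = 2.66e-06). Cd44, the sort marker, was at 2.73, 2.89 and 2.72 on Mat and not well above background on MH. The Mat cells had been sorted for its protein, so Cd44 is no independent marker. The part of the sort in its difference was not tested.

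Matrix, chemokine and cytoskeletal genes stood among the largest increases. Col1a1, a chain of fibrillar collagen I, was at 4.27, 3.88 and 4.4 on Mat and at -6.15, -7.86 and -4.95 on MH, where 1 of 3 arrays was above background (10.5 ± 0.76, adjusted p = 1.13e-06). Saal1 was at 5.88, 3.33 and 6.13 against -5.94, -5.3 and -5.76, with 1 MH array above background (10.78 ± 1.35, adjusted p = 5.31e-05). The calcium-binding protein S100a4 differed by 10.04 ± 0.44, also with 1 MH array detected, though its probes ranged from 2.94 to 10.04. Tent5b was at least 378-fold higher, and a probe that the file names Vom2r-ps135 was at least 676-fold higher. Among genes measured on all 6 arrays, placeholder names left out, the largest increases were S100a6 (9.27 ± 0.42), the annexin Anxa1 (8.38 ± 0.36), the matricellular protein Smoc2 (8.13 ± 1.15), the aldo-keto reductase Akr1b8 (7.91 ± 0.21) and the small heat shock protein Cryab (7.87 ± 0.52). They were followed by Cav1 of caveolae (7.7), the fatty acid desaturase Scd2 (7.5, another probe 3.4), the plasminogen activator Plat (7.38), Ahnak (7.35) and the prion protein gene Prnp (7.33). Plat was at 5.06, 5.06 and 5.1 on the Mat arrays, almost equal, and at -2.24, -2.49 and -2.2 on MH.

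Markers of the other liver cells were examined in both groups. Of 22 tested Kupffer cell and macrophage markers, 22 were lower on Matrigel (median -6.37, or -5.89 with bounds), 9 of them not above background on any Mat array. The Kupffer cell lectin Clec4f was at 3.68, 3.44 and 3.68 on MH and at least 1270-fold lower, and the scavenger protein Cd5l was at least 235-fold lower. Their signals, summed over the list in multiples of the array's 75th percentile, were 52.4 to 54.3 on MH and 1.16 to 1.72 on Mat. Sinusoidal endothelial markers were lower in 17 of 22 and higher in 2 (median -2.37), with summed signals of 19.1 to 21.5 on MH and 2.41 to 5.81 on Mat. The endothelial members named next are all from the lower side, and Kdr and Lyve1 were picked after their values were seen. The vascular receptor Kdr was at 2.67, 2.55 and 2.6 on MH and at -3.06, -4.52 and -3.1 on Mat. Lyve1 and Plvap were not above background on any Mat array and were at least 153-fold and at least 137-fold lower. The freshly isolated hepatocytes thus carried signals of these cell types, and the part of such cells in the other differences was not tested. In bulk samples, fewer cells of a type and less RNA per cell cannot be told apart.

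Mesothelial markers were higher in 10 of 14 tested genes and lower in 1 (median 3.53, or 2.42 with bounds). Podoplanin (Pdpn) was at 2.23, 1.47 and 2.29 on Mat and at least 271-fold higher (another probe at 4.1), Upk1b was at least 147-fold higher, and mesothelin (Msln) stood at 2.78, 4.29 and 2.71 against -4.86, -5.85 and -5.03 (8.51 ± 0.57, adjusted p = 6.7e-07, 1 of 3 MH arrays above background). The defining transcription factor Wt1 was at -3.59, -5.36 and -3.37 on Mat and at least 3.93-fold higher, a call lost after normexp background correction. Summed signals of this list were 47.3 to 57.9 on Mat and 25.7 to 39.6 on MH. Stellate cell and fibroblast markers were higher in 8 of 23, lower in 4 and not called in 11 (median 0.64), against 26.2% higher and 41.0% lower of all genes. Their medians against the MH mean were 1.38, -0.15 and 1.57 on Mat replicates 1, 2 and 3, so replicate 2 was again the lowest. Without it, 10 were higher and 4 lower, with a median of 1.47. Des, the muscle-type filament of stellate cells, is 1 of the higher members and was picked after its values were seen. It was at -0.27, -2.65 and -0.36 on Mat and at -4.81, -5.07 and -5.49 on MH (4.03 ± 0.88, adjusted p = 0.00231, 2 of 3 MH arrays above background). The receptor Pdgfra (0.64 ± 1.27, adjusted p = 0.673) and the retinol-storing enzyme Lrat (-2.1 ± 1.03, adjusted p = 0.0935) were not called. Lrat was at -3.62, -0.78 and -3.55 on Mat, here with replicate 2 the highest.

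**Figure D1:**
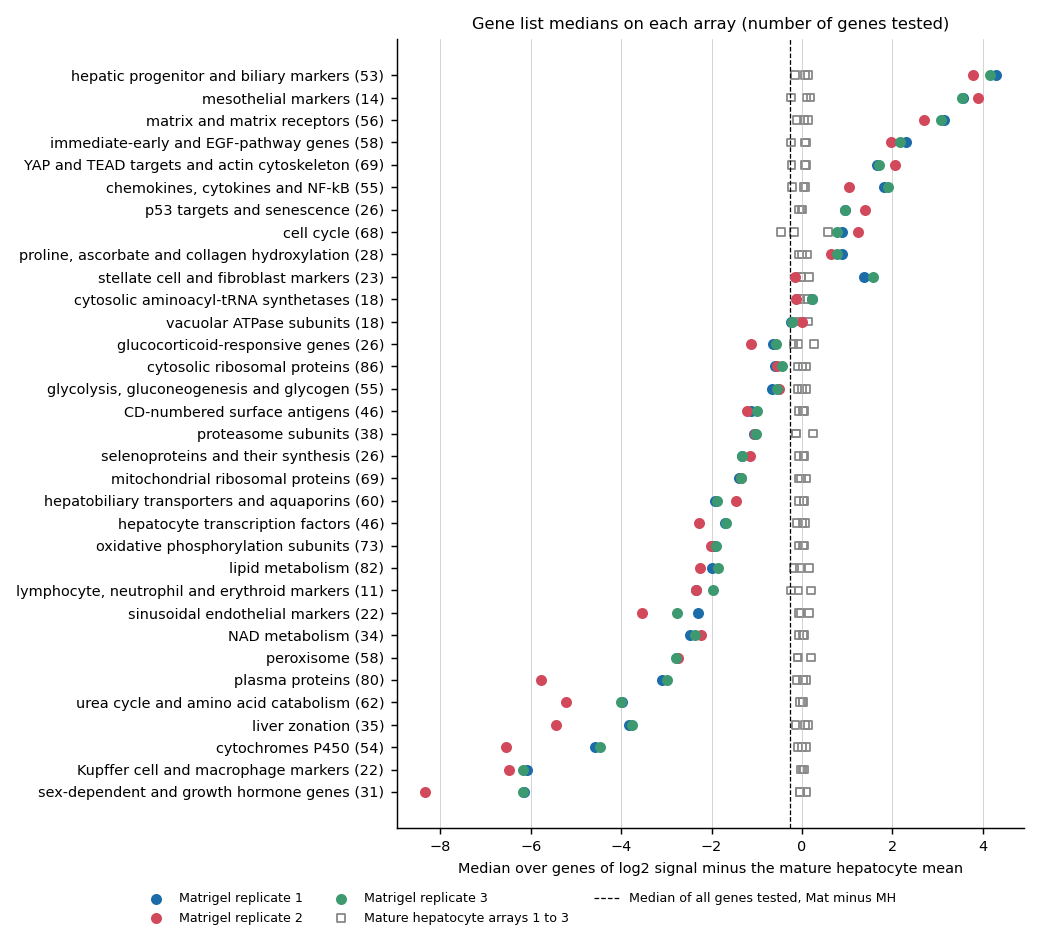
Median over the tested genes of each list of the scaled signal minus the MH mean (log2), 1 point per Mat array in colour and 1 open square per MH array, with the median difference of all genes (-0.27) as a dashed line. Mat replicate 2 lies at -5.78 for plasma proteins, where replicates 1 and 3 lie at -3.1 and -2.99, while for progenitor and biliary markers the 3 arrays lie at 4.29, 3.79 and 4.17.

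Extracellular matrix and its receptors were higher in 41 of 56 tested genes and lower in 4 (median 2.72). Basement membrane genes were higher in 11 of 14 and lower in 1. Among those higher, the laminin chain Lama5 differed at least 194-fold, and its partner chain Lamb1 was at 1.47, 1.62 and 1.47 on Mat and at -3, -2.63 and -2.75 on MH (4.31 ± 0.22, adjusted p = 1.08e-07, with another of its probes at 1.61). Lamc1 differed by 3.88 ± 0.22. Matrigel itself is rich in laminin protein, which these RNA values do not measure. Integrins were higher in 10 of 17. Itgb4, of hemidesmosomes, was at 1.88, 3.32 and 1.84 on Mat and at -2.75, -2.73 and -2.96 on MH (5.16 ± 0.6), and Itgb1, the common beta chain, differed by 1.45 ± 0.13 (adjusted p = 6.1e-06). The heparan sulphate proteoglycan Sdc2 was lower (-3.21 ± 0.15), as was the plasma and matrix protein Vtn (-5.24 ± 1.46), which stood at 3.08, -0.69 and 3.17 on Mat.

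YAP and TEAD targets and actin cytoskeleton genes were higher in 53 of 69 tested and lower in 7 (median 1.8). The YAP targets Ccn2 and Ccn1, secreted matricellular proteins, differed by 8.56 ± 0.44 (2 of 3 MH arrays above background) and 3.78 ± 0.35, with Ccn2 at 3.8, 4.58 and 3.78 on Mat and at -3.77, -5.58 and -4.17 on MH. Tgfb2 was at least 52.1-fold higher. Among filament genes, Krt20 was at least 316-fold higher and Vim, the filament of mesenchymal cells, was at 4.07, 4.81 and 3.99 against -3.07, -2.87 and -2.71 (7.17 ± 0.36, adjusted p = 9.73e-08). Actin and actin-binding genes were higher in 24 of 31. Lower members included Igfbp3 (-2.78 ± 0.32), the nuclear lamina gene Lmnb1 (-2.54 ± 0.36) and the leukocyte actin-bundling gene Lcp1 (-4.34 ± 0.5), the last above background on 2 of 3 Mat arrays.

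Immediate-early and EGF-pathway genes were higher in 34 of 58 tested and lower in 9 (median 2.3). Klf4 was at 1.65, 1.79 and 1.63 on Mat and at -4.29, -5.22 and -4.5 on MH (6.36 ± 0.27, adjusted p = 3.58e-08). Myc differed by 2.59 ± 0.31 and Fos by 2.54 ± 0.54, with Fos at -0.28, -0.29 and -0.36 on Mat and a wider -1.76, -4.36 and -2.42 on MH. The receptors moved in opposite directions. Egfr, the receptor of the EGF in the medium, was at -0.57, -0.25 and -0.52 on Mat and at 3.47, 1.83 and 2.54 on MH (-3.06 ± 0.35, adjusted p = 2.61e-05), while its partner Erbb2 was not above background on MH and at least 35.3-fold higher on Matrigel (adjusted p = 4.64e-09). Egf, the gene of EGF itself, was lower (-4.35 ± 0.19, 2 of 3 Mat arrays above background).

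Chemokines, cytokines and NF-kB genes were higher in 32 of 55 tested and lower in 10 (median 1.65). The monocyte chemokine Ccl2 was at 5, 3.26 and 5.17 on Mat and at -5.74, -5.01 and -5.03 on MH, where 1 array was above background (9.74 ± 0.74, adjusted p = 1.5e-06). Its relative Ccl7 was at least 503-fold higher and the neutrophil chemokine Cxcl3 at least 307-fold higher. The membrane-bound chemokine Cx3cl1 was at least 156-fold higher, with 1.58, 1.25 and 1.58 on Mat. Of 16 NF-kB subunits and feedback genes, 12 were higher and 0 lower, among them the subunit Relb (3.4 ± 0.23, adjusted p = 6.58e-07). The cytokine Il1a (at least 81.3-fold), the interferon-induced chemokine Cxcl11 (-4.88 ± 0.36, 1 of 3 Mat arrays above background), the cytokine Il18 (-2.66 ± 0.28) and the interleukin-6 receptor Il6r (-2.24 ± 0.29, call lost unscaled) were lower. As with the plasma proteins, Mat replicate 2 was the lowest Mat array for Ccl2, Ccl7 (3.62, 1.28 and 3.78) and Cxcl3 (2.55, 1.31 and 2.68).

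The NF-kB motif was present in 16 of 637 promoters of genes higher by at least 10-fold (2.51%), in 17 of 814 of genes lower by at least 10-fold (2.09%), in 170 of 10888 tested (1.56%) and in 351 of all 27456 (1.28%), so its share was above that of all promoters in both directions. The AP-1 motif TGANTCA, of FOS and JUN proteins, was present in 7.69%, 6.02%, 4.81% and 6.36% of these sets, and the TEAD motif ACATTCC in 3.45%, 4.18%, 2.6% and 3.36%. A CArG box, bound by serum response factor, was found in 2.04%, 1.47%, 1.13% and 1.5%. The 2 chemokine genes Cxcl1 (chr14:17479322-17479571, minus strand) and Cxcl2 (chr14:17467256-17467505, minus strand), chosen after their values were seen, carry 2 NF-kB matches each, printed in capitals. They start 102 and 84 bases before the gene start in Cxcl1 and 74 and 54 bases before it in Cxcl2. Cxcl1 was at 4.68, 3.9 and 4.77 on Mat and at -1.25, -4.49 and -1.63 on MH (6.9 ± 0.84, adjusted p = 4.32e-05). Cxcl2 was at 4.22, 3.04 and 4.3 against -4.21, -7.36 and -3.96, with 2 of 3 MH arrays above background (9.03 ± 0.96, adjusted p = 1.71e-05). MH replicate 2 was the lowest array for both.
Cxcl1: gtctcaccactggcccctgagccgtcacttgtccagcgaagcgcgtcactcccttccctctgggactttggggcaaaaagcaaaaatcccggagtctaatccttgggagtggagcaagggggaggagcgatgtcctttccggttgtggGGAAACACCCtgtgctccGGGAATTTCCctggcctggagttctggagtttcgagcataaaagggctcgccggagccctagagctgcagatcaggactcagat
Cxcl2: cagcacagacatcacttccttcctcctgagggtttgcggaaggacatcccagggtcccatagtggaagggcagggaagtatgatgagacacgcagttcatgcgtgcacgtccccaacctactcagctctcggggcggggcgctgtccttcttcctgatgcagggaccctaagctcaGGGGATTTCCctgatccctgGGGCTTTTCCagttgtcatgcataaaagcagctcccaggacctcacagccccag

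Genes of the cell cycle were higher in 30 of 68 tested and lower in 7 (median 0.98). Of 22 G1 and inhibitor genes, 14 were higher and 2 lower. The G1 kinase Cdk6 was at -1.24, -0.6 and -1.34 on Mat and at -4.05, -4.11 and -4.33 on MH (3.1 ± 0.2, adjusted p = 4.64e-07), and cyclin D1 (Ccnd1) differed by 2 ± 0.41. Inhibitors of the same kinases were higher too, Cdkn2b by 4.06 ± 0.31 and Cdkn2a by 4.32 ± 0.37 (2 of 3 MH arrays above background). Of 22 replication genes 12 were higher, with the polymerase clamp Pcna at 0.78, 0.88 and 0.92 against -0.69, -0.65 and -0.48 (1.47 ± 0.16). Of 24 mitosis genes, 4 were higher and 3 lower, both smaller shares than the 26.2% higher and 41.0% lower of all genes. The median of the mitosis genes against the MH mean was -0.63, -0.86 and 1.5 on MH replicates 1 to 3, so MH replicate 3 lay above all Mat arrays (0.82, 1.36 and 0.69). The proliferation antigen Mki67 was at -1.87, -1.3 and -2.12 on Mat and at -3.46, -3.86 and -1.42 on MH, where replicate 3 overlapped the Mat arrays. Its difference was not called in the main fit (1.15 ± 0.56, adjusted p = 0.09). Settings that did call it included the percentile over detected probes (1.68, 0.0229) and no scaling (2.76, 0.000516). Aurka was lower by its brightest probe (-4.46 ± 0.16), but another of its probes gave 0.04. Targets of p53 and senescence genes were higher in 16 of 26 and lower in 2 (median 1.11). Cyclin G1 (Ccng1) differed by 3.27 ± 0.25, Igfbp7 by 3.51 ± 0.28 and the p53 ligase Mdm2 by 2.04 ± 0.23, while the repair gene Ddb2 was lower (-2.38 ± 0.28, call lost unscaled).

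Many reactions have a liver form and a form of many tissues, and pairs of such genes were compared. In 23 of 25 pairs with both genes tested, the liver form was lower on Matrigel, and in 14 the partner was higher, with 13 pairs showing both. The difference of the liver form lay below that of its partner in 24 of 25 pairs. The pairs were written with earlier results of these data known, so these counts are a description and no independent result. Liver pyruvate kinase (Pklr) was at -0.84, -2.06 and -0.67 on Mat against 3.17, 0.85 and 3.08 (-3.56 ± 0.68), and Pkm at 2.3, 2.52 and 2.31 against -1.92, -1.97 and -1.67 (4.23 ± 0.32, adjusted p = 1.35e-06, the lowest of its 5 probes at 1.76). The same held for methionine adenosyltransferases (Mat1a -6.31 ± 1.18, Mat2a 2.64 ± 0.24), glycogen phosphorylases (Pygl -3.67 ± 0.26, Pygb 3.62 ± 0.19), arginases (Arg1 -4.24 ± 0.7, Arg2 at least 6.46-fold higher) and the gap junction pair Gjb1 (-3.04 ± 0.28) and Gja1 (4.19 ± 0.33). Phosphofructokinase Pfkp was higher by 4.03 ± 0.13, and Pfkfb3 by 4.31 ± 0.4 although another of its probes gave -1.73. In 5 pairs both forms were lower, among them the acyl-CoA synthetases Acsl1 (-5.84 ± 0.22) and Acsl4 (-2.57 ± 0.27). The enolases Eno3 (0.39 ± 0.25) and Eno1 (-0.19 ± 0.17) were the exception in order, and neither was called. Nor was the liver glucose carrier Slc2a2, at 2.64, 2.98 and 2.71 on Mat and at 3.38, 2.44 and 3.33 on MH (-0.28 ± 0.32, adjusted p = 0.47), while Slc2a1 was higher.

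**Figure D2:**
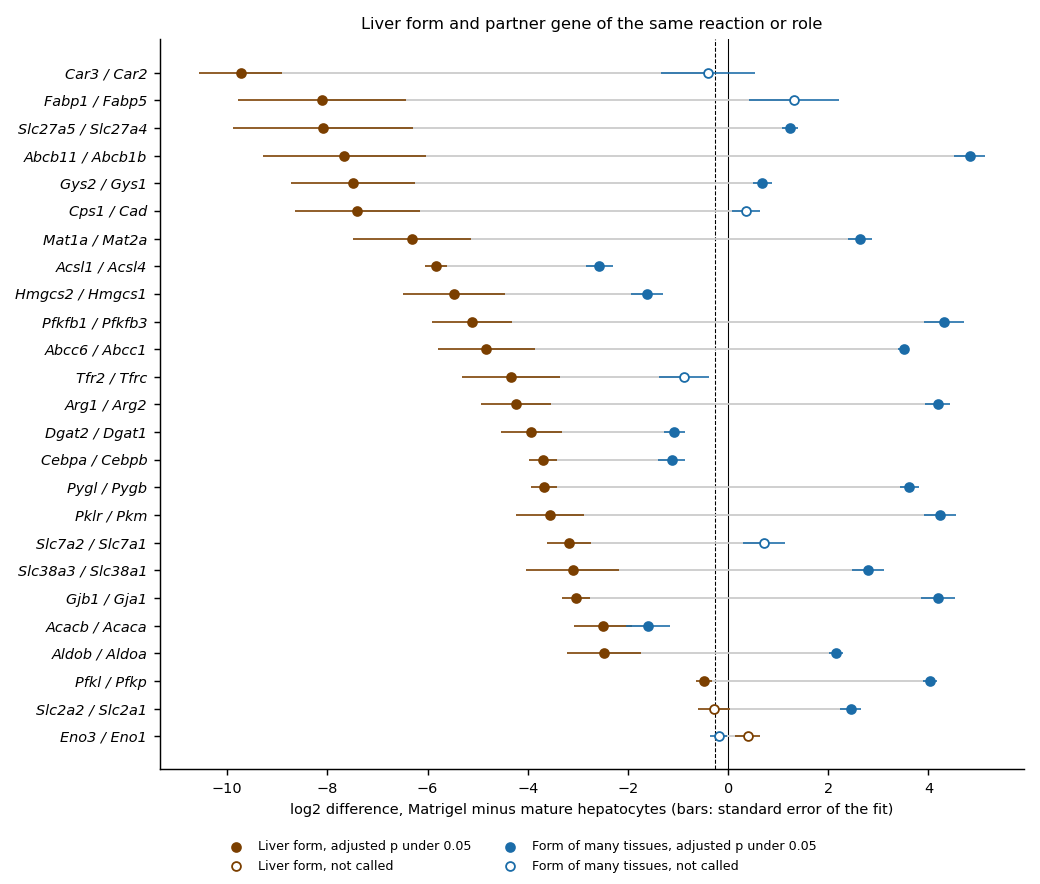
Difference Mat minus MH (log2, with the SE of the fit as bars) of the liver form and of its partner in 25 pairs, filled where adjusted p is under 0.05. Pairs such as Mat1a (-6.31) and Mat2a (2.64) lie on opposite sides of 0, and Eno3 (0.39) and Eno1 (-0.19) is the only pair with the liver form above its partner.

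RNA of energy metabolism genes was lower on several routes. Fatty acid oxidation and ketogenesis genes were lower in 20 of 22 (median -3.42), with the dehydrogenase Acadm at 0.81, 0.64 and 0.91 on Mat and at 5.48, 5.64 and 5.29 on MH (-4.68 ± 0.17, adjusted p = 1.44e-08). Over lipid metabolism as a whole, 53 of 82 tested genes were lower and 7 higher. Those higher included Scd2, the cholesterol-esterifying enzyme Soat1 (4.98 ± 0.25) and the lipase Lpl, at least 38.4-fold higher. Peroxisomal genes were lower in 51 of 58 (median -2.83) with nearly the same median on each Mat array (-2.77, -2.75 and -2.78). Amacr, which acts on branched fatty acids and bile acid precursors, differed by -6.67 ± 0.27, and the import receptor Pex5 by -2.36 ± 0.14. Far1, the reductase that starts ether lipid synthesis, was higher (at least 10.3-fold). Of 73 oxidative phosphorylation subunits, 69 were lower and 2 higher, with a median of -1.96 that was still negative, at -0.35, unscaled. The complex II subunit Sdha was at 1.21, 1.35 and 1.29 on Mat and at 3.8, 3.67 and 3.81 on MH (-2.47 ± 0.11, adjusted p = 4.82e-08). The ATP synthase inhibitor Atp5if1 was higher (1.18 ± 0.13). Gluconeogenesis genes were lower in 6 of 8 and higher in 2, and glycogen genes were lower in 8 of 12. Glycolysis genes were divided, 10 of 27 higher and 13 lower, against 26.2% and 41.0% of all genes.

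Substances in the culture medium bear on known pathways, and genes of these were described. Nicotinamide is a precursor of NAD. Of 34 tested NAD genes 27 were lower and 3 higher (median -2.39). All 8 tested genes of NAD synthesis from tryptophan were lower (median -5.41, or -4.81 with 7 lower without Mat replicate 2), such as Kynu (-10.1 ± 0.46, 2 of 3 Mat arrays above background), and so were all 3 genes of nicotinamide removal. Nnmt, which methylates nicotinamide, was at 0.02, -0.65 and 0.09 on Mat and at 3.26, 3.54 and 3.18 on MH (-3.51 ± 0.34, adjusted p = 9.29e-06) by its brightest probe, while another of its 3 probes gave 0.07. The oxidase Aox3 was at least 271-fold lower. Salvage genes were lower in 6 of 7. The exception, Nampt, the rate-limiting salvage enzyme, was at -1.84, -2.79 and -2.12 on Mat and at 6.78, -1.35 and -1.01 on MH, so MH replicate 1 stood far from the others and the gene was not called (-3.72 ± 1.7, adjusted p = 0.0754). Of 13 NAD users, 3 were higher and 7 lower (median -0.53), against 26.2% and 41.0% of all genes. Those higher were Bst1 (at least 133-fold), Sirt6 (1.03 ± 0.14) and Sirt1 (0.75 ± 0.19, adjusted p = 0.00503).

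Proline and ascorbate serve collagen synthesis, and collagen modification genes were higher in 12 of 17 and lower in 2. The cross-linking oxidase Lox (at least 85.5-fold), the lysyl hydroxylase Plod2 (at least 82.6-fold) and the collagen chaperone Serpinh1 (1.55, 1.6 and 1.65 on Mat against -1.45, -1.45 and -1.13 on MH, 2.94 ± 0.18) were among them. Of 7 proline metabolism genes, 3 were higher and 4 lower. Aldh18a1, which starts proline synthesis, was higher at least 33.7-fold (adjusted p = 1.27e-08, with another of its probes at 2.84). Among reductases of the last step, Pycr1 was higher (1.83 ± 0.36) and Pycr3 lower (-1.99 ± 0.18, call lost unscaled). The breakdown enzymes Prodh and Aldh4a1 were lower (-4.92 ± 0.45 and -3.66 ± 0.28). The ascorbate carrier Slc23a1 was at least 112-fold lower. Dexamethasone acts on the glucocorticoid receptor, whose gene Nr3c1 was at -0.9, -1.06 and -0.65 on Mat and at 2.28, 1.1 and 1.23 on MH (-2.41 ± 0.32). Of 26 tested glucocorticoid-responsive genes 6 were higher and 12 lower (median -0.53, but 1.08 unscaled). These shares are near the 26.2% higher and 41.0% lower of all genes. Of 13 targets known from many tissues, 4 were higher, among them Ddit4 (3.37 ± 0.32) and Cebpd, and 4 lower, among them Pdk4, a kinase that restrains glucose oxidation (at least 34.9-fold). The receptor's chaperone Fkbp5 was higher (2.84 ± 0.3, adjusted p = 1.58e-05). Of 7 hepatocyte targets 1 was higher and 5 lower, Pck1 and G6pc1 among them (median -5.09, or -3.33 without Mat replicate 2). Selenium is built into selenoproteins. Of 19 selenoproteins, 7 were higher and 11 lower. The secreted peroxidase Gpx3 was at 0.9, 0.44 and 1.11 on Mat against -5.52, -5.01 and -5.21 on MH (6.06 ± 0.24, 1 of 3 MH arrays above background), the epithelial Gpx2 differed by 5.86 ± 0.7, and the thyroid hormone deiodinase Dio1 was at least 240-fold lower.

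Complexes that every cell uses showed smaller differences, and their direction depended on the scaling. Cytosolic ribosomal proteins were lower in 62 of 86 tested and higher in 0 (median -0.56), but their median was 0.85 under quantile scaling and 1.05 unscaled. Proteasome subunits were lower in 33 of 38 (median -1.05, 0.56 unscaled), led by the immune subunit Psmb8 (-3.3 ± 0.28). Mitochondrial ribosomal proteins were lower in 66 of 69, with a median of -1.36, and 0.25 unscaled. Mrpl40 was at 0.45, 0.37 and 0.47 on Mat and at 2.74, 2.76 and 2.75 on MH (-2.32 ± 0.12, another probe at -0.96). Cytosolic aminoacyl-tRNA synthetases were evenly divided, with 7 of 18 higher and 7 lower (4 and 6 without Mat replicate 2, median 0.19, -0.13 after normexp correction). Vacuolar ATPase subunits were higher in 3 of 18 and lower in 6, against 26.2% and 41.0% of all genes. Their median was -0.19, but 0.34 under quantile scaling or with the percentile over detected probes and 1.42 unscaled. CD-numbered surface antigens were higher in 12 of 46 and lower in 22 (median -0.96, 0.65 unscaled), against 26.2% and 41.0% of all genes, a share near that background. Among them were Cd9 at least 36.5-fold and Cd55 at least 40.1-fold higher, Cd24, higher by 4.26 ± 0.28, and the endothelial Cd93, at least 115-fold lower. Markers of lymphocytes, neutrophils and red cells were tested for 11 of 29 genes, with 7 lower, 1 higher and summed signals of 2.47 to 3.53 on MH and 0.617 to 0.77 on Mat. The haemoglobin gene Hbb-b1 was at least 71.1-fold lower.

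The spread inside each group followed named genes. Of 16967 genes detected on all Mat arrays, 468 had a range over 4-fold, and of 14995 detected on all MH arrays, 233. Placeholder names left out, the widest called genes on Mat were Tdo2 (1.71, -3.58 and 1.67), which opens the tryptophan ring, the alcohol dehydrogenase Adh1c (1.59, -3.58 and 1.61), the corticosteroid-binding globulin Serpina6 (-0.17, -4.55 and 0.01), Tff3 (1.72, -2.67 and 1.79), Abcb11 and F9. Replicate 2 was the low array in all 6. Tdo2, Adh1c and Serpina6 were lower than MH, and their calls, at adjusted p = 0.0408, 0.014 and 0.0282, were lost without replicate 2 (-3.33, -4.67 and -3.24, adjusted p = 0.154, 0.0552 and 0.109). Those of Tdo2 and Serpina6 were also lost without any 1 MH array (adjusted p = 0.0579 to 0.086), and that of Tdo2 without LN111 replicate 3 (0.0534). Tff3, a trefoil peptide of mucous epithelia, was higher than MH (4.79 ± 1.48, adjusted p = 0.015), but not without Mat replicate 1 (4.07, 0.0574) or 3 (4.04, 0.0571). Among the widest on MH were the medium-chain acyl-CoA synthetase Acsm5 (-2.37, 2.64 and -3.66), Cyp7a1, Stac3 (4.73, 0.09 and 4.15) and the acyltransferase Gpat3 (-3.95, 0.66 and -3.6). MH replicate 2 was the lowest array for Cyp7a1 and Stac3 and the highest for Acsm5 and Gpat3. Gpat3 was called higher on Matrigel (2.87 ± 0.96, adjusted p = 0.022, another probe at 0.68), but MH replicate 2 overlapped the Mat arrays, and the call was lost without MH replicate 1 or 3 or Mat replicate 2 (2.04, 2.22 and 2.71, adjusted p = 0.0873, 0.0862 and 0.0595). It was also lost in fits of the 6 arrays only, with the replicate block and within slide 1 (adjusted p = 0.0761, 0.0613 and 0.138). Cyp7a1 is known to follow the time of day, which the labels do not give.

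**Figure D3:**
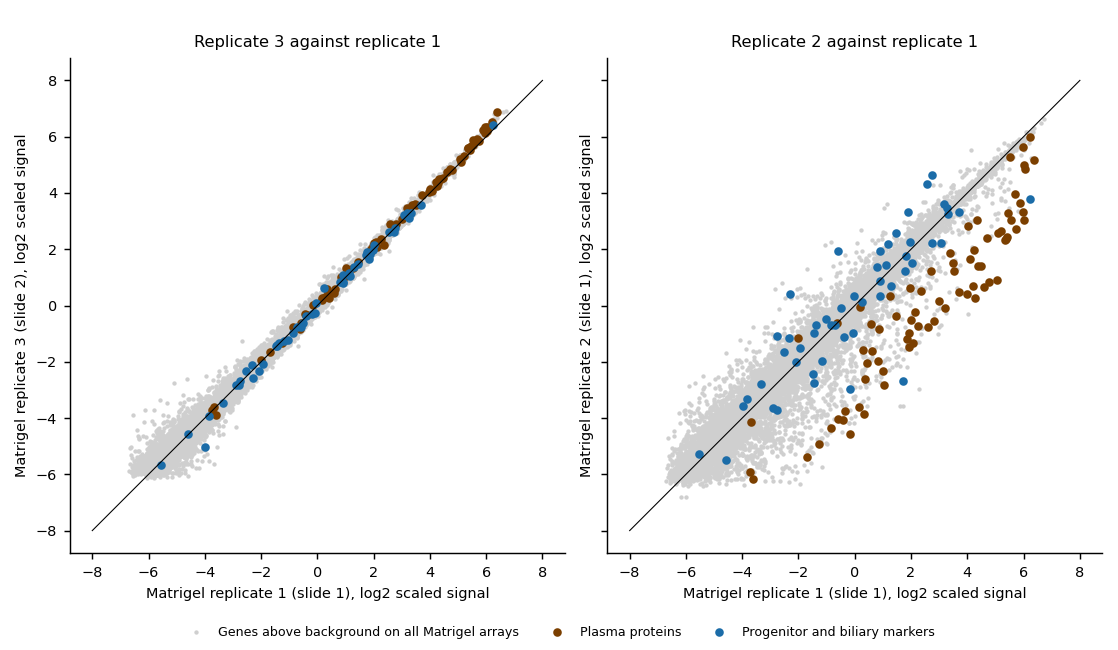
Scaled signal (log2) of genes above background on all 3 Mat arrays, replicate 3 (left) and replicate 2 (right) against replicate 1, with plasma proteins and progenitor and biliary markers in colour and the line of equality. Plasma proteins lie on the line between replicates 1 and 3 and below it for replicate 2, where F9, for example, is at -3.85 against 0.33.

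Few genes were called between Matrigel and the 2 laminin substrates after 3 h. Of 17908 genes, 250 were called in Mat against the mean of LN111 and LN511 (1.4%), 2 higher (0.0112%) and 248 lower (1.38%), and 2076 had an unadjusted p under 0.05 in the limma fit of the 9 cultured arrays. With the slide as a block, 0 genes were called (835 at an unadjusted p under 0.05), and with Mat replicates 1 and 3 as 1 sample, 3. Leaving out single arrays gave 0 calls (Mat replicate 1) to 526 (LN111 replicate 1), with 8 and 30 calls without Mat replicates 2 and 3, 45 without LN111 replicate 3, an array with noisier spots, and 1, 1 and 108 without LN511 replicates 1, 2 and 3. Mat replicates 1 and 2 lay on slide 1, whereas Mat replicate 3 and all laminin arrays lay on slide 2, so slide and substrate are largely confounded.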

How the data were processed

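RNA of the 12 samples was hybridised to single-colour Agilent rat arrays, 100 ng labelled with Cy3 per sample, per the labels' protocols. Per the submitters' processing notes, scans were read with Agilent Feature Extraction 10.7. The deposited processed signal is a linear intensity, background-subtracted and detrended per the file headers, and the authors did not scale it between arrays.

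From that intensity, log2 was taken and the 75th percentile of each array over its non-control spots subtracted. Repeated spots were averaged after dropping those marked as outliers, which kept 45489 of 45598 probes (109 lost). Probes were named through RefSeq (GRCr8) by accession (21109), another accession (2754), symbol (5124) or older symbol (343), and 16268 kept the file's name, Vom2r-ps135 among the names printed. Testing required a gene to have a probe detected (well above background) on every array of 1 group or more, and the brightest such probe was used (6157 of 18927 names are placeholders). Of 2589 called genes with several usable probes, 317 had probes of opposite sign. For the 14 called genes named here with a probe under 50% of the log2 difference of the brightest, that probe's value is given.

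Tests were two-sided limma 3.58.1 fits (lmFit and eBayes, R 4.3.3), Mat against MH within all 12 arrays and Mat against both laminins within the 9 cultured arrays. They were tested on simulated data: for Mat against MH with 18927 genes, the fit found 34.9% of the simulated 2-fold changes and 73.4% of the 4-fold ones, with 6.94% false among its calls, and for the laminins with 17908 genes these were 47.3%, 80.5% and 4.69%. Only a small share of genes was changed in each simulation, with independent normal noise, whereas 67.3% of genes were called between Mat and MH. The simulated shares therefore do not describe the calls reported here. Same-numbered Mat and MH arrays were not treated as pairs in the main fits. The alternatives were other background, scaling and filter settings, blocks for slide or replicate, and leaving out arrays. Of the deposited columns, 0 had no sample.

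The samples compared, the 33 gene lists and the isozyme pairs were chosen with earlier results of these data known. The naming rule took the 10 largest called differences in each direction without overlap of arrays and without a placeholder name, the 10 and 10 measured on all 6 arrays, the 8 genes Cd44, Alb, Afp, Krt19, Sox9, Epcam, Hnf4a and Mki67, up to 4 members per list and direction by smallest p, all isozyme pairs reported, the 6 widest called genes in each group and up to 5 per direction against the laminins. Outside this rule, after their values were seen, were named Ghr, Igf1, Otc, Cyp2e1, Slc10a1, Baat, Plg, Igf2, Kdr, Lyve1, Wt1, Des, Pdgfra, Lrat, Lamc1, Itgb4, Itgb1, Ccn1, Ccn2, Myc, Fos, Cxcl1, Cxcl2, Ccnd1, Mdm2, Nnmt, Nampt, Nr3c1, Pycr1 and those of the other observations. Some genes that this rule names, and the pairs that hold them, are not reported here.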

Additional observations from a re-analysis of the deposited data

Results flagged for a closer look

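A test of the difference between substrates, Matrigel minus the mean of both laminins, called 250 genes. Their calls were lost with the slide as a block (0 called), and the part of slide and substrate cannot be told apart for most arrays. LOC100909950 was above background on all Mat arrays (-4.71, -5.88 and -5.07) and on 0 of 6 laminin arrays, at least 2.65-fold higher on Matrigel (fitted difference 2.64, limma adjusted p = 0.0231). Fam135b differed by 1.83 ± 0.29, although its 3 LN111 arrays (-4.59, -5.68 and -4.95) lay near Mat (-4.64, -4.77 and -3.91) and its LN511 arrays at -7.59, -7.08 and -7.72, all below background. LOC103690805 differed by -2.95 ± 0.51, with LN511 at -1.68, -1.97 and -1.34 and LN111 between -7.08 and -4.89, the latter overlapping Mat. Outside LN511 it was above background on 1 Mat and 1 LN111 array. Or10al7, named as an olfactory receptor, differed by -2.8 ± 0.46. LOC102550356 (fitted difference -2.85), Vom2r70, named as a vomeronasal receptor (-2.76), and ENSRNOT00000072228 (-2.76) were above background on 0 of 3 Mat arrays, on 0, 1 and 0 LN111 arrays and on all LN511 arrays, so no fold is read from them. The highest arrays of these 4 genes were all LN511. With the slide as a block the adjusted p of these 7 genes was 0.0639 to 0.693.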

How the results depend on the processing

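Of 209 genes named here, 201 were called between Mat and MH. Of these, 183 kept direction and call under every alternative in which they were tested. The strict filter tested only 139 of the 209, so it gives no result for the rest. Most of the others lost their call under another scaling, among them Irf7 and Mx2 unscaled. In unscaled values Hey1 stood at 0.1, Hnf4a at 0.27, Slc2a2 at 1.33 and Eno1 at 1.42, and under quantile scaling Ttr stood at 0.08 and Eno1 at 0.85, each opposite in sign to the value given above. The median of 9 of 33 gene lists turned with the scaling or background correction, glycolysis, gluconeogenesis and glycogen to 1.02 and selenoproteins to 0.34 unscaled and the other 7 as given beside each list.

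The 12730 calls between Mat and MH were 11530 to 12094 without 1 of the 6 arrays, 11806 with the slide as a block, 11610 within slide 1 and 11708 with Mat replicates 1 and 3 averaged. The 4964 higher genes were 4443 to 5083 and the 7766 lower ones 7007 to 7987 without 1 array, where LN111 replicate 3, left out by a choice made after seeing the data as was the averaging, gave the upper end and 13070 calls in all. With no filter on dim probes 22849 genes were called, 17872 of them lower. The higher genes were 2902 after normexp, 2716 with the strict filter, 7696 with the percentile over detected probes and 12394 unscaled, where 1878 were lower.

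Same-numbered arrays of Mat and MH did not deviate together (r from 0 to 0.02), so the samples share only a number, and with the replicate block 12312 genes were called. Against the laminins that block gave 311 calls, 4 higher and 307 lower.

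Matrigel against both laminins rested on single arrays and settings. Its 250 calls were 0 to 526 without 1 array (0 to 6 higher, 0 to 520 lower), 0 with the slide as a block, and 3, all lower, with Mat replicates 1 and 3 averaged. They were 92 with the strict filter, all lower, 109 under quantile scaling (106 lower), 1059 after normexp (1 higher, 1058 lower) and 9087 unscaled (8931 higher, 156 lower). The cause of these shifts was not tested.

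Signals near background give only bounds, 3 arrays a group limit precision, and RNA per cell and cell mixture cannot be told apart on a common scale.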

Other observations

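Other genes, picked after their values were seen and therefore without a claim about their groups, add to the description of Matrigel against mature hepatocytes. Several targets of NRF2, a regulator of antioxidant defence, were higher. The sulfiredoxin Srxn1 was at 3.91, 3.85 and 4.05 on Mat and at 0.17, 0.72 and -0.09 on MH (3.67 ± 0.24, limma adjusted p = 6e-07). Nqo1 differed by 3.21 ± 0.3 and the haem oxygenase Hmox1 by 3.08 ± 0.37. The amino acid response gene Asns, asparagine synthetase, was at 1.33, 1.1 and 1.28 on Mat and at -3.6, -2.12 and -3.21 on MH (4.21 ± 0.31, adjusted p = 1.37e-06).

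Interferon-induced genes went both ways. The antiviral enzyme Oas1a was below background on every Mat array, a decrease of at least 154-fold (adjusted p = 1.74e-08). Lower too were Irf7 (-1.99 ± 0.24) and Mx2 (-2.11 ± 0.32). Rsad2 (1.93 ± 0.32) and the chemokine Cxcl10 (2.78 ± 0.33) were higher, with Cxcl10 at 0.96, 0.2 and 0.87 on Mat and at -2.51, -1.67 and -2.13 on MH. The Notch ligand Jag1 was higher (4.01 ± 0.37, 2 of 3 MH arrays above background) while the Notch target Hey1 was lower (-1.51 ± 0.16).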
